A study of Mus musculus with 9 samples.

Results

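The 39 genes examined here follow the oligodendrocyte lineage, from the precursor cell to the myelin sheath. They were chosen by name, as 10 genes of the precursor or of the cell just committed to the lineage (Olig1, Olig2, Cspg4, Vcan, Matn4, Gpr17, Neu4, Nkx2-2, Lhfpl3 and C1ql1) and 29 genes of myelin and the cells that make it, and all 39 had a probe among the 24897 genes measured. Messenger RNA was compared between sorted cells of mice aged 6 to 8 weeks on 9 one-colour arrays, 3 in each of 3 groups, with RNA of 1000 cells amplified for each array and tissue of 10 dissections pooled for an experiment. Hippocampal Sox2-GFP cells came from the hippocampus of a transgenic line in which green fluorescent protein is driven by the promoter of Sox2, a stem cell transcription factor that other glia also express. SVZ Sox2-GFP cells came from the subventricular zone (SVZ), the stem cell niche beside the lateral ventricle, with the same reporter. DCX-DsRed cells came from the hippocampus of a line in which the promoter of doublecortin (Dcx), expressed by newborn neurons, drives a red fluorescent protein. The labels do not say whether arrays A, B and C of a group came from separate pools, so p-values measure only how far these samples spread, which could be technical.

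Oligodendrocytes wrap axons in myelin, a stack of membrane rich in galactolipids and held together by a small set of very abundant proteins. They arise from precursor cells that carry the proteoglycan NG2 (Cspg4) and the receptor Pdgfra and that divide throughout adult life. The transcription factors Olig1, Olig2, Sox10 and Nkx2-2 mark the lineage, and Myrf switches on the myelin genes when a precursor stops dividing and matures.

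Values are log2 of the processed signal minus the 75th percentile of the same array, so that 0 stands for that percentile and 1 unit for a doubling. They are given as mean ± SD (n = 3 arrays a group), and differences as log2 with the standard error (SE). The share of probes well above background on an array ran from 80.4% to 88.4%. The transcripts of the reporters' own genes did not track the sorts. Sox2 was 0.96, 0.94 and -0.92 on hippocampal Sox2-GFP arrays A, B and C, 1.33, 1.74 and 1.72 on DCX-DsRed arrays and 0.94, 2.09 and 2.30 on SVZ arrays, so in the hippocampus every array of the Sox2-GFP sort lay below every DCX-DsRed array (-1.27 ± 0.59 SE, limma adjusted p = 0.328). Dcx was -0.17, -0.75 and -2.85 on hippocampal Sox2-GFP arrays, -1.26, -0.76 and 1.30 on DCX-DsRed arrays and 2.60, 3.07 and -2.34 on SVZ arrays, with overlap between all groups. Hippocampal Sox2-GFP array C stood apart for the genes described here, so hippocampal differences without it are given beside each member that it moved by over 1.5 times. Arrays A and B of that group shared a slide with no other group. Without array C, a difference of that group therefore cannot be told apart from a difference between slides. The other slides held DCX-DsRed A and B with SVZ A, and Sox2-GFP C, DCX-DsRed C, SVZ B and SVZ C. The 3 comparisons reuse the same arrays, so their results are not independent of each other.

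Myelin genes were most abundant in the hippocampal DCX-DsRed cells. Of the 29 myelin genes, 17 had a lower level in the Sox2-GFP than in the DCX-DsRed cells of the hippocampus and 0 a higher one (limma, Benjamini-Hochberg adjusted p under 0.05 over all genes), with a median difference of -4.54 against -0.079 over all genes tested. Among all genes 1.43% were called lower and 1.74% higher in this comparison. None of the 10 precursor genes was called by limma, 3 had an unadjusted p under 0.05 (16.9% of all genes did), and their median difference was -0.77. In bulk RNA of sorted cells, fewer cells of a type and less RNA per cell cannot be told apart.

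The separation between the groups was wide for the myelin genes. For 26 of the 29, each of the 3 DCX-DsRed arrays lay above each of the 6 Sox2-GFP arrays of either region. The same held for 2 of the 10 precursor genes, Olig1 and Olig2, and for 5.92% of all genes. The 3 myelin genes that overlapped were Nkx6-2, Klk6 and Omg. For 24 of the 29 the group means ran in 1 order, with DCX-DsRed highest, SVZ Sox2-GFP between and hippocampal Sox2-GFP lowest, an order found in 22.8% of all genes. The DCX-DsRed arrays also lay close together for these genes, with a median SD of 0.27 against 0.54 over all genes, whereas hippocampal Sox2-GFP arrays had a median SD of 1.25 against 0.61. These SDs were not matched for signal level, so they may not be a trait of the myelin genes.

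**Figure D1:**
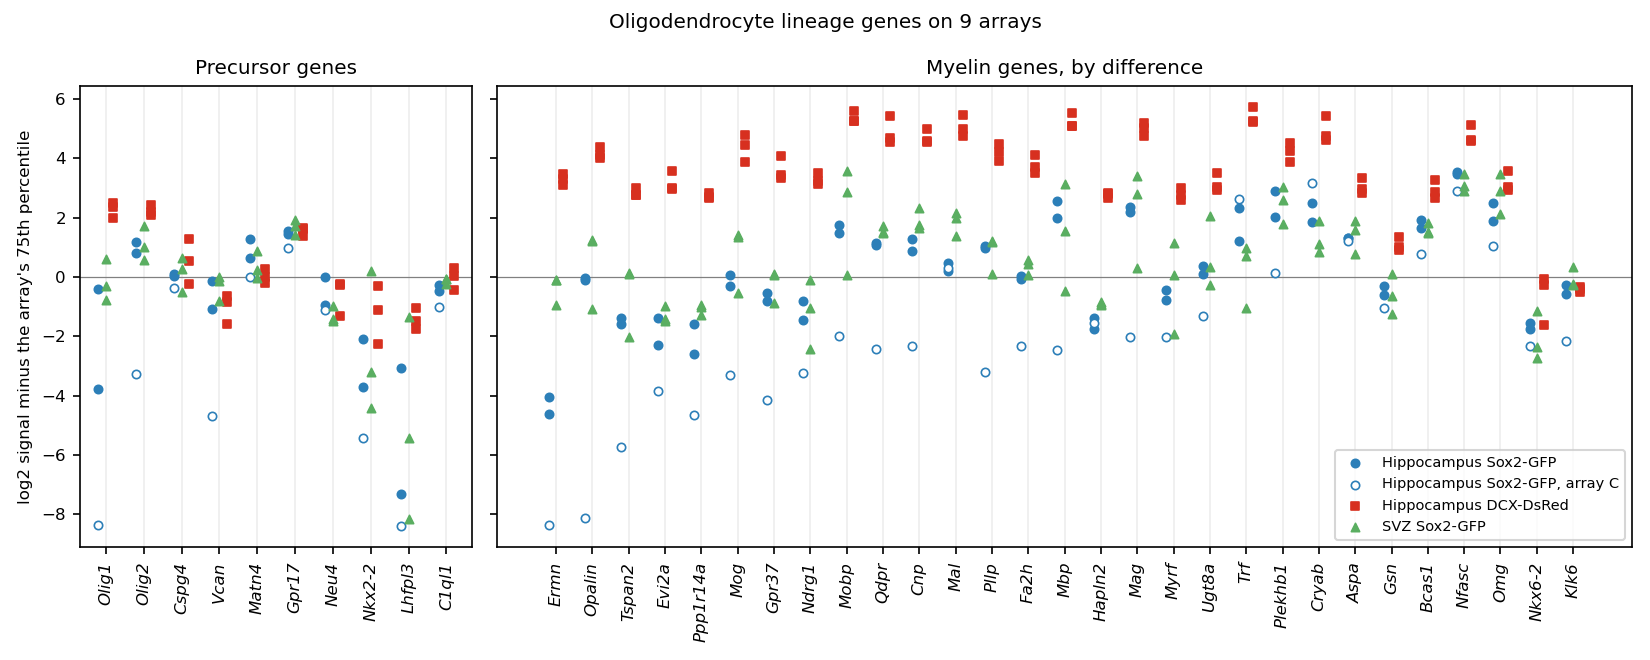
Log2 signal minus the array's 75th percentile (vertical axis) of the 10 precursor genes (left) and the 29 myelin genes (right, ordered by the hippocampal difference) on each of the 9 arrays; open circles are hippocampal Sox2-GFP array C. For 26 of the 29 myelin genes the 3 DCX-DsRed arrays lie above all 6 Sox2-GFP arrays, while most precursor genes overlap, and levels of different genes cannot be compared because each has its own probe.

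The 5 called myelin genes with the largest hippocampal differences were Ermn, Tspan2, Evi2a, Ppp1r14a and Mog. Ermn, which encodes the cytoskeletal protein ermin of mature oligodendrocytes, measured -4.64, -4.07 and -8.37 on hippocampal Sox2-GFP arrays A, B and C, 3.29, 3.11 and 3.47 on DCX-DsRed arrays and -0.93, -0.12 and -0.089 on SVZ arrays. All DCX-DsRed arrays lay above 3 and all Sox2-GFP arrays of both regions below 0, with the hippocampal ones lowest. Ermn was 504-fold lower in hippocampal Sox2-GFP cells (-8.98 ± 0.99 SE, limma adjusted p = 0.00462), where its probe was well above background on 2 of the 3 arrays. Without array C the difference was -7.64, without array B -9.79, and both were called.

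Evi2a, a membrane protein gene that lies inside an intron of Nf1, measured -2.30, -1.37 and -3.84 on hippocampal Sox2-GFP arrays A, B and C, 2.98, 3.01 and 3.57 on DCX-DsRed arrays and -1.48, -0.99 and -1.43 on SVZ arrays. Ppp1r14a, an inhibitor of protein phosphatase 1, measured -1.59, -2.59 and -4.65 on hippocampal Sox2-GFP arrays A, B and C, 2.83, 2.66 and 2.70 on DCX-DsRed arrays and -1.27, -0.95 and -1.02 on SVZ arrays. In both genes the Sox2-GFP arrays of either region were all negative and the DCX-DsRed arrays close together. Evi2a was 51.6-fold lower in the hippocampal Sox2-GFP cells (-5.69 ± 0.59 SE, limma adjusted p = 0.0036) and Ppp1r14a 51.1-fold lower (-5.68 ± 0.68 SE, limma adjusted p = 0.00615). Leaving out array C gave -5.02 for Evi2a and -4.82 for Ppp1r14a, leaving out array A gave -6.35 for Ppp1r14a, and both genes stayed called whichever array was left out.

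Mog, the myelin oligodendrocyte glycoprotein on the outer face of the sheath, measured 0.078, -0.31 and -3.32 on hippocampal Sox2-GFP arrays A, B and C, 3.88, 4.44 and 4.78 on DCX-DsRed arrays and 1.40, 1.36 and -0.56 on SVZ arrays. Tspan2, a tetraspanin of the myelin membrane, measured -1.59, -1.39 and -5.75 on hippocampal Sox2-GFP arrays A, B and C, 2.77, 2.77 and 3.0 on DCX-DsRed arrays and 0.15, 0.11 and -2.02 on SVZ arrays. Hippocampal Sox2-GFP array C was the lowest of the 9 for both, and SVZ array C the lowest of its group. Mog was 46.9-fold lower in hippocampal Sox2-GFP than in DCX-DsRed cells (-5.55 ± 0.93 SE, limma adjusted p = 0.0208), and Tspan2 54.1-fold lower (-5.76 ± 1.14 SE, limma adjusted p = 0.0367). The difference of Mog was -4.48 without array C and -6.18 without array A, both called, and its call was lost without any 1 of the 3 DCX-DsRed arrays (limma adjusted p from 0.0662 to 0.0738). Tspan2 measured -4.34 without array C and -6.52 without array B, both called. It was -6.42 without array A (limma adjusted p = 0.0616), and it also lost its call without each DCX-DsRed array and without SVZ A or B.

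The promoters of the 4 called members with the largest hippocampal differences that have an entry in RefSeq's promoter table are shown because these genes were called together and in 1 direction. Each is the 250 bases before the gene's start, from 5′ to 3′, in build GRCm38.p6, with Ermn at chr2:58052865-58053114 on the minus strand, Tspan2 at chr3:102734520-102734769 on the plus strand, Ppp1r14a at chr7:29289070-29289319 on the plus strand, Mog at chr17:37023399-37023648 on the minus strand. Capitals mark matches to a SOX core motif (ACAAAG or ACAATG) or the MYRF core motif (CTGGCAC) on either strand.
Ermn: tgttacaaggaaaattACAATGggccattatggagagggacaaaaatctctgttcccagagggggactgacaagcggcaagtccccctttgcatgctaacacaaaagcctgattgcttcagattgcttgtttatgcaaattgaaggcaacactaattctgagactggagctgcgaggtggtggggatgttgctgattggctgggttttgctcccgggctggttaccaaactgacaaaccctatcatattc
Tspan2: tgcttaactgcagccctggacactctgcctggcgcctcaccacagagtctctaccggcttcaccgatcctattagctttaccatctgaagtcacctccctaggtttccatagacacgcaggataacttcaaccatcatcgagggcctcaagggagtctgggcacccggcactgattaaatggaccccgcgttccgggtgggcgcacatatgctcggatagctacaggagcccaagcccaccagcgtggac
Ppp1r14a: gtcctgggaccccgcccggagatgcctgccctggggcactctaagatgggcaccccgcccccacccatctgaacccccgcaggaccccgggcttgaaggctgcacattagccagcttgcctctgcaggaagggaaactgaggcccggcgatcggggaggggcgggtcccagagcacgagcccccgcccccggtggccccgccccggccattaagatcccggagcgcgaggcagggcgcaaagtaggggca
Mog: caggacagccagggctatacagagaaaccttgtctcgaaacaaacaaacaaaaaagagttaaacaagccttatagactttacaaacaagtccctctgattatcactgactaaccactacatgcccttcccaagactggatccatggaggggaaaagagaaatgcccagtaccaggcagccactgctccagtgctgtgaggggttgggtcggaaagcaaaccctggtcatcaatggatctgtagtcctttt

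A SOX core motif was found in the promoter of Ermn and in no other of these 4, and the MYRF core motif in none of them. Over the members, 7 of the 20 myelin genes with an entry held a SOX core motif in these 250 bases and 1 of the 7 precursor genes, against 25.5% of the 27025 promoters of the table. The MYRF core motif occurred in 3 of the 20 myelin promoters and 0 of the 7 precursor promoters, against 4.14% of all. E-boxes (CANNTG, which reads the same on both strands), the motif that OLIG proteins bind, occurred in 16 of the 20 and 5 of the 7, against 66.0% of all. The SOX match of Ermn overlaps no other motif, since that promoter holds neither of the others. A match is a run of letters and not a measured site.

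The structural proteins of the sheath shared this pattern with unequal certainty. Mbp, the myelin basic protein that zips the inner membrane faces together, measured 1.97, 2.56 and -2.48 on hippocampal Sox2-GFP arrays A, B and C, 5.08, 5.09 and 5.52 on DCX-DsRed arrays and 1.55, 3.12 and -0.48 on SVZ arrays. The DCX-DsRed arrays were the highest 3 of the 9, and the Sox2-GFP arrays of each region spread over more than 3 log2 units. Mbp was 23.3-fold lower in the hippocampal Sox2-GFP group, which did not pass (-4.54 ± 1.35 SE, limma adjusted p = 0.129, 95% interval -7.64 to -1.44). Without array C the difference was -2.96 (limma adjusted p = 0.156).

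Mal, a proteolipid of myelin rafts, averaged 0.32 ± 0.14 in hippocampal Sox2-GFP, 5.06 ± 0.35 in DCX-DsRed and 1.83 ± 0.41 in SVZ cells. Its arrays lay close together in every group, and it was 26.8-fold lower in hippocampal Sox2-GFP cells (-4.74 ± 0.34 SE, limma adjusted p = 0.000883), called whichever array was left out. Pllp, plasmolipin, of the same protein family, averaged -0.39 ± 2.44 in hippocampal Sox2-GFP, 4.19 ± 0.27 in DCX-DsRed and 0.82 ± 0.64 in SVZ cells and did not pass (-4.59 ± 1.05 SE, limma adjusted p = 0.0603). Without array C the difference of Pllp was -3.18 and passed (limma adjusted p = 0.0156). Cnp, the phosphodiesterase of uncompacted myelin, averaged -0.054 ± 1.97 in hippocampal Sox2-GFP, 4.70 ± 0.25 in DCX-DsRed and 1.91 ± 0.37 in SVZ cells. It was 27-fold lower (-4.76 ± 0.85 SE, limma adjusted p = 0.0264), -3.63 without array C and -5.42 without array A, and lost its call without any 1 DCX-DsRed array (limma adjusted p from 0.0816 to 0.0905).

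The sheath proteins Mag, Mobp and Opalin did not pass. Mag, the glycoprotein that faces the axon, averaged 0.84 ± 2.49 in hippocampal Sox2-GFP, 4.99 ± 0.23 in DCX-DsRed and 2.17 ± 1.64 in SVZ cells (-4.14 ± 1.23 SE, limma adjusted p = 0.128). Mobp, a small basic protein of compact myelin, averaged 0.42 ± 2.08 in hippocampal Sox2-GFP, 5.37 ± 0.19 in DCX-DsRed and 2.16 ± 1.84 in SVZ cells (-4.95 ± 1.15 SE, limma adjusted p = 0.063). Mobp passed without SVZ array C, which leaves its difference as it is and changes the shared spread (limma adjusted p = 0.0425). Opalin, a sialylated membrane protein, averaged -2.75 ± 4.66 in hippocampal Sox2-GFP, 4.16 ± 0.19 in DCX-DsRed and 0.46 ± 1.34 in SVZ cells (-6.91 ± 1.97 SE, limma adjusted p = 0.114), and its probe was well above background on 2 of the 3 hippocampal Sox2-GFP arrays. In each of these 3 genes hippocampal Sox2-GFP array C was the lowest of the 9, and for Opalin its value of -8.12 lay far under -0.023 and -0.092 on arrays A and B. Without array C the difference of Mag was -2.71 and that of Mobp -3.75, neither called. Opalin without array C differed by -4.22 and passed (limma adjusted p = 0.0273).

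The proteins of the axon contact zones divided. Hapln2, a link protein of the matrix at nodes of Ranvier, averaged -1.56 ± 0.19 in hippocampal Sox2-GFP, 2.75 ± 0.093 in DCX-DsRed and -0.90 ± 0.052 in SVZ cells. Its SD was at most 0.19 in any group, it was 19.9-fold lower in hippocampal Sox2-GFP cells (-4.31 ± 0.27 SE, limma adjusted p = 0.00061), and it had the smallest p of the 39 genes. Nfasc, neurofascin, which both glia and neurons make as different isoforms, averaged 3.30 ± 0.35 in hippocampal Sox2-GFP, 4.77 ± 0.31 in DCX-DsRed and 3.13 ± 0.29 in SVZ cells and did not pass (-1.47 ± 0.34 SE, limma adjusted p = 0.0611). Omg, a glycoprotein that neurons also express, averaged 1.80 ± 0.73 in hippocampal Sox2-GFP, 3.18 ± 0.35 in DCX-DsRed and 2.84 ± 0.68 in SVZ cells and did not pass either (-1.38 ± 0.50 SE, limma adjusted p = 0.203). Omg lies in the same intron of Nf1 as Evi2a, and its arrays overlapped between DCX-DsRed and SVZ cells.

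The enzymes Fa2h, Ugt8a, Aspa and Qdpr were all lower in the hippocampal Sox2-GFP cells. Fa2h, which hydroxylates the fatty acids of myelin galactolipids, averaged -0.79 ± 1.34 in hippocampal Sox2-GFP, 3.77 ± 0.31 in DCX-DsRed and 0.36 ± 0.27 in SVZ cells. It was 23.6-fold lower (-4.56 ± 0.62 SE, limma adjusted p = 0.00966), -3.79 without array C, and called whichever array was left out. Ugt8a, which makes galactosylceramide, averaged -0.29 ± 0.89 in hippocampal Sox2-GFP, 3.15 ± 0.30 in DCX-DsRed and 0.70 ± 1.22 in SVZ cells and was 10.9-fold lower (-3.44 ± 0.67 SE, limma adjusted p = 0.0346), with a call kept in 2 of 9 fits that left out 1 array. Aspa, which frees acetate for lipid synthesis, averaged 1.27 ± 0.065 in hippocampal Sox2-GFP, 3.05 ± 0.27 in DCX-DsRed and 1.40 ± 0.58 in SVZ cells and was 3.43-fold lower (-1.78 ± 0.36 SE, limma adjusted p = 0.0409, called in 2 of 9 such fits). Qdpr, a reductase that regenerates tetrahydrobiopterin, averaged -0.073 ± 2.05 in hippocampal Sox2-GFP, 4.88 ± 0.46 in DCX-DsRed and 1.57 ± 0.14 in SVZ cells and was 30.9-fold lower (-4.95 ± 0.89 SE, limma adjusted p = 0.0265, called in 6 of 9 such fits). Its difference was -3.77 without array C and -5.56 without array A, both called.

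The fits that ended these calls left out DCX-DsRed A, B or C for Qdpr, and for Ugt8a and Aspa each hippocampal array, and also SVZ C for Ugt8a and SVZ B for Aspa. The limma adjusted p then ran up to 0.0901 for Qdpr, 0.107 for Ugt8a and 0.123 for Aspa, while the differences stayed between -3.77 and -2.93 for Ugt8a and between -1.89 and -1.63 for Aspa.

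Trf and Cryab departed from the common order of the group means. Trf, transferrin, the iron carrier that oligodendrocytes secrete, measured 2.33, 1.19 and 2.61 on hippocampal Sox2-GFP arrays A, B and C, 5.24, 5.24 and 5.73 on DCX-DsRed arrays and 0.98, 0.71 and -1.05 on SVZ arrays. Cryab, a small heat shock protein, measured 2.49, 1.86 and 3.18 on hippocampal Sox2-GFP, 4.76, 4.63 and 5.41 on DCX-DsRed and 1.1, 1.88 and 0.84 on SVZ arrays. DCX-DsRed was again highest, but SVZ was the lowest group, as also for Nfasc, Nkx6-2 and the precursor gene Neu4. Array C was the highest of the hippocampal Sox2-GFP arrays for both Trf and Cryab. Trf was 10.3-fold lower in hippocampal Sox2-GFP than in DCX-DsRed cells (-3.36 ± 0.60 SE, limma adjusted p = 0.027) and Cryab 5.36-fold lower (-2.42 ± 0.46 SE, limma adjusted p = 0.0324). Both lost these calls without hippocampal Sox2-GFP A or B or any 1 DCX-DsRed array, with limma adjusted p up to 0.0902 for Trf and 0.101 for Cryab. Trf is also made by the choroid plexus, and 9 of 13 choroid plexus markers (1.74% of all genes) were higher in hippocampal Sox2-GFP than in DCX-DsRed cells, the part of which was not tested.

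Of the remaining membrane and signalling genes, Gpr37 and Ndrg1 passed. Gpr37, an orphan receptor, averaged -1.84 ± 2.00 in hippocampal Sox2-GFP, 3.62 ± 0.39 in DCX-DsRed and -0.24 ± 0.56 in SVZ cells. It was 44.1-fold lower in the hippocampal Sox2-GFP cells (-5.46 ± 0.89 SE, limma adjusted p = 0.0186), -4.31 without array C and -6.11 without array A, and not called without DCX-DsRed A, B or C (limma adjusted p up to 0.0673). Ndrg1, whose protein is needed to keep myelin of peripheral nerves, measured -0.80, -1.47 and -3.22 on hippocampal Sox2-GFP arrays A, B and C, 3.13, 3.22 and 3.50 on DCX-DsRed arrays and -1.05, -2.42 and -0.11 on SVZ arrays. It was 34.6-fold lower (-5.11 ± 0.74 SE, limma adjusted p = 0.0121), -4.41 without array C, and not called only without DCX-DsRed A (limma adjusted p = 0.0518). Bcas1, a marker of cells that start to myelinate, averaged 1.44 ± 0.60 in hippocampal Sox2-GFP, 2.92 ± 0.30 in DCX-DsRed and 1.60 ± 0.19 in SVZ cells (-1.48 ± 0.38 SE, limma adjusted p = 0.0833). Gsn, the actin-severing gelsolin, averaged -0.66 ± 0.38 in hippocampal Sox2-GFP, 1.09 ± 0.21 in DCX-DsRed and -0.60 ± 0.68 in SVZ cells (-1.75 ± 0.41 SE, limma adjusted p = 0.0652, and 0.0494 without SVZ A). Plekhb1, a membrane protein with a pleckstrin homology domain, averaged 1.69 ± 1.41 in hippocampal Sox2-GFP, 4.22 ± 0.32 in DCX-DsRed and 2.48 ± 0.64 in SVZ cells (-2.53 ± 0.68 SE, limma adjusted p = 0.0979), with a difference of -1.76 without array C. These 3 did not pass although their DCX-DsRed arrays lay above all others.

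Of the transcription factors among the myelin genes, Myrf passed and Nkx6-2 did not. Myrf averaged -1.08 ± 0.83 in hippocampal Sox2-GFP, 2.79 ± 0.21 in DCX-DsRed and -0.24 ± 1.54 in SVZ cells. It was 14.7-fold lower in hippocampal Sox2-GFP cells (-3.88 ± 0.75 SE, limma adjusted p = 0.0346), and the call was kept in 2 of 9 fits that left out 1 array, those without SVZ A or SVZ C. In the others the difference stayed between -4.19 and -3.41, with limma adjusted p up to 0.116. Nkx6-2, a homeobox factor of late oligodendrocyte development, averaged -1.88 ± 0.39 in hippocampal Sox2-GFP, -0.66 ± 0.84 in DCX-DsRed and -2.08 ± 0.83 in SVZ cells (-1.21 ± 0.56 SE, limma adjusted p = 0.328). Klk6, a secreted protease, was the myelin gene with the smallest difference, at -1.01 ± 1.02 in hippocampal Sox2-GFP, -0.42 ± 0.096 in DCX-DsRed and -0.06 ± 0.34 in SVZ cells (-0.59 ± 0.50 SE, limma adjusted p = 0.607, 95% interval -1.75 to 0.57). It measured -0.58, -0.26 and -2.17 on hippocampal Sox2-GFP arrays A, B and C and -0.40, -0.52 and -0.33 on DCX-DsRed arrays. Only array C lay far below the DCX-DsRed arrays.

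**Figure D2:**
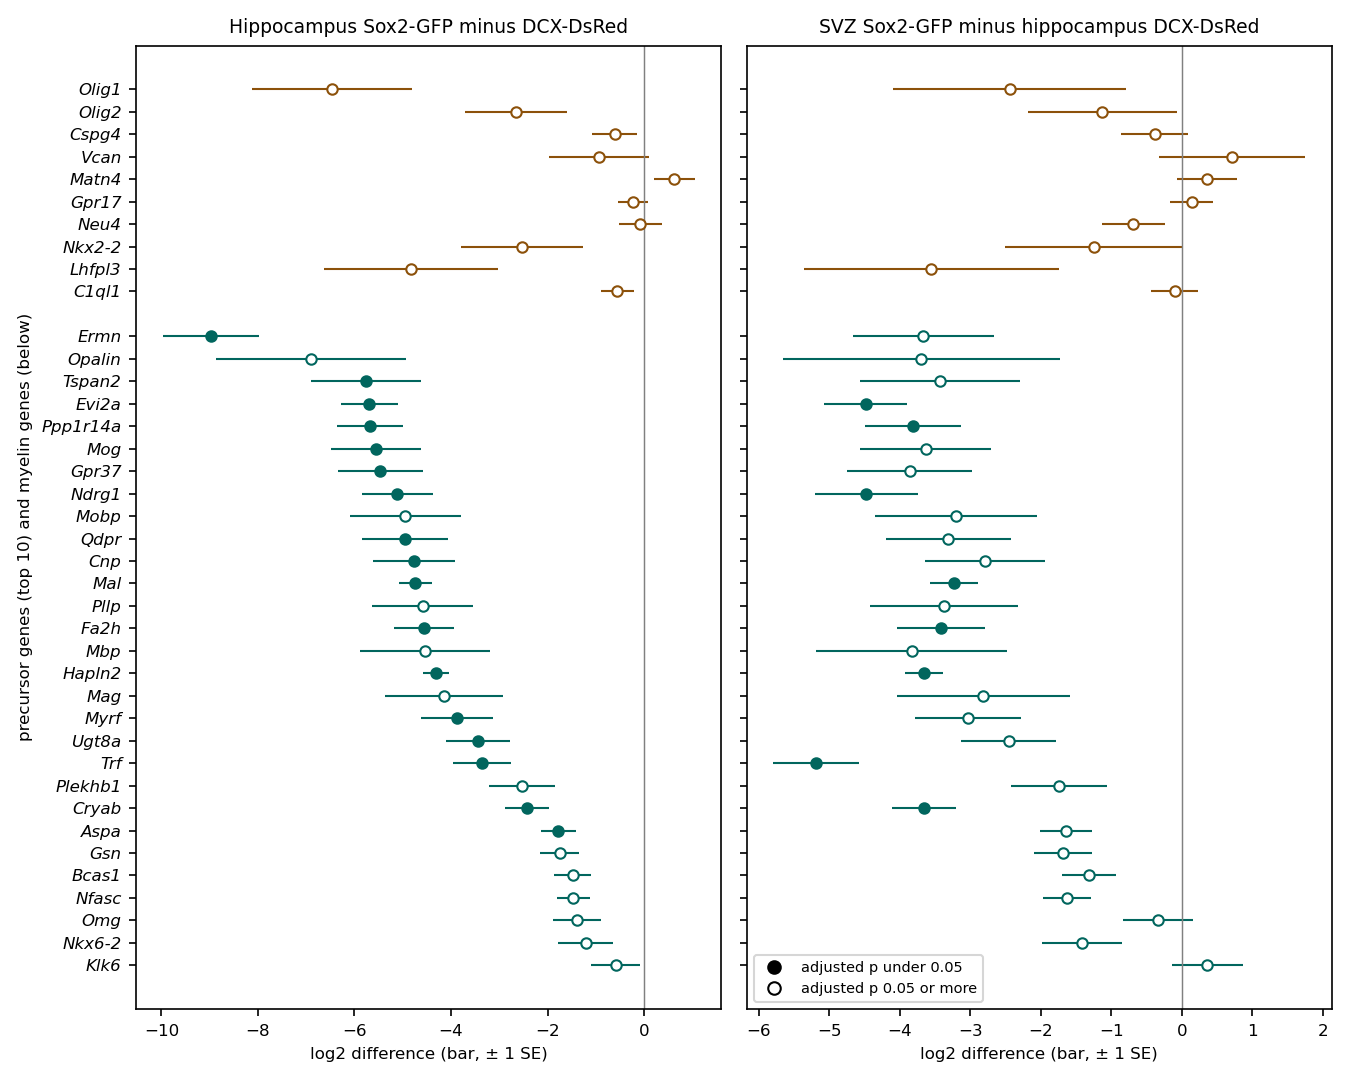
Log2 differences (horizontal axis, each panel with its own scale) with bars of 1 SE for the 10 precursor genes (top) and 29 myelin genes (below) between hippocampal Sox2-GFP and DCX-DsRed cells (left) and between SVZ Sox2-GFP and hippocampal DCX-DsRed cells (right); filled points have a limma adjusted p under 0.05. Of the myelin genes 17 on the left and 8 on the right are filled, all to the left of 0, and none of the precursor genes is filled.

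Of the precursor genes, Olig1, Lhfpl3, Olig2 and Nkx2-2 had hippocampal differences below -2.5 that did not pass, and the other 6 lay between -0.93 and 0.63. Olig2 measured 0.81, 1.17 and -3.28 on hippocampal Sox2-GFP arrays A, B and C, 2.19, 2.08 and 2.41 on DCX-DsRed arrays and 0.56, 1.72 and 1.02 on SVZ arrays. DCX-DsRed arrays were the highest and array C the lowest, and the other hippocampal Sox2-GFP arrays lay within the range of the SVZ arrays. The difference did not pass (-2.66 ± 1.06 SE, limma adjusted p = 0.251, 95% interval -5.08 to -0.24), and without array C it was -1.24. Olig1, its neighbour in the genome and in function, averaged -4.18 ± 4.0 in hippocampal Sox2-GFP, 2.28 ± 0.27 in DCX-DsRed and -0.16 ± 0.69 in SVZ cells (-6.46 ± 1.65 SE, limma adjusted p = 0.0836). Its probe was well above background on 2 of the 3 hippocampal Sox2-GFP arrays. Without array A its difference was -8.35 and passed (limma adjusted p = 0.026), and without array C it was -4.37 and did not (limma adjusted p = 0.0549).

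Cspg4, which encodes the NG2 proteoglycan of precursors and also of pericytes, measured 0.083, 0.023 and -0.38 on hippocampal Sox2-GFP arrays A, B and C, 1.28, 0.53 and -0.24 on DCX-DsRed arrays and 0.65, -0.52 and 0.27 on SVZ arrays. The 3 groups overlapped, and the hippocampal difference was -0.61 ± 0.48 SE (limma adjusted p = 0.565), with a 95% interval of -1.71 to 0.48 that leaves out a decrease as large as the median of the myelin genes. Gpr17, a receptor of cells that have just committed, averaged 1.32 ± 0.29 in hippocampal Sox2-GFP, 1.55 ± 0.14 in DCX-DsRed and 1.68 ± 0.25 in SVZ cells (-0.23 ± 0.30 SE, limma adjusted p = 0.757, 95% interval -0.93 to 0.47). C1ql1, a secreted protein, averaged -0.59 ± 0.37 in hippocampal Sox2-GFP, -0.033 ± 0.37 in DCX-DsRed and -0.13 ± 0.10 in SVZ cells (-0.55 ± 0.33 SE, limma adjusted p = 0.453), and Neu4, a sialidase, -0.69 ± 0.61 in hippocampal Sox2-GFP, -0.61 ± 0.62 in DCX-DsRed and -1.30 ± 0.28 in SVZ cells (-0.078 ± 0.45 SE, limma adjusted p = 0.954). Matn4, a matrix protein, was the only precursor gene with a positive difference, at 0.64 ± 0.65 in hippocampal Sox2-GFP, 0.007 ± 0.23 in DCX-DsRed and 0.37 ± 0.47 in SVZ cells (0.63 ± 0.42 SE, limma adjusted p = 0.5).

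Vcan varied widely on the hippocampal Sox2-GFP arrays, Lhfpl3 on the Sox2-GFP arrays of both regions and Nkx2-2 in every group. Vcan, the matrix proteoglycan versican, averaged -1.96 ± 2.41 in hippocampal Sox2-GFP, -1.03 ± 0.50 in DCX-DsRed and -0.32 ± 0.42 in SVZ cells (-0.93 ± 1.04 SE, limma adjusted p = 0.703). Array C alone made this difference negative, since without it Vcan was 0.44 (limma adjusted p = 0.725). Nkx2-2, a homeobox factor of the lineage, averaged -3.75 ± 1.67 in hippocampal Sox2-GFP, -1.23 ± 0.98 in DCX-DsRed and -2.47 ± 2.39 in SVZ cells (-2.53 ± 1.26 SE, limma adjusted p = 0.363, and -1.68 without array C). Lhfpl3, a membrane protein gene used as a precursor marker, averaged -6.26 ± 2.82 in hippocampal Sox2-GFP, -1.43 ± 0.36 in DCX-DsRed and -4.98 ± 3.43 in SVZ cells (-4.83 ± 1.81 SE, limma adjusted p = 0.225, and -3.76 without array C), and its probe was well above background on 1 hippocampal Sox2-GFP array, 2 SVZ arrays and all 3 DCX-DsRed arrays. Array C was the lowest hippocampal Sox2-GFP array for 10 of the 10 precursor genes and 25 of the 29 myelin genes, against 56.7% of all genes. The median of array C minus the mean of arrays A and B was -1.76 for the precursor genes and -2.09 for the myelin genes, against -0.37 for all genes.

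Between SVZ Sox2-GFP and hippocampal DCX-DsRed cells, where region and reporter differ together and cannot be told apart, 8 of the 29 myelin genes were lower in the SVZ cells and 0 were higher (limma, adjusted p under 0.05). Over all genes 1% were called lower and 0.542% higher. The median difference of the myelin genes was -3.31 and that of the precursor genes -0.54, against -0.028 over all genes. Of the 10 precursor genes 0 were called by limma and 0 had an unadjusted p under 0.05 (13.7% of all genes did). The 8 genes were Trf, Evi2a, Ndrg1, Ppp1r14a, Cryab, Hapln2, Fa2h and Mal, and each of them was also among the 17 of the hippocampal comparison, which used the same DCX-DsRed arrays.

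Trf was 36.5-fold lower in the SVZ cells (-5.19 ± 0.60 SE, limma adjusted p = 0.0105), and -4.56 on the log2 scale without SVZ C. Hapln2 was 12.6-fold lower (-3.66 ± 0.27 SE, limma adjusted p = 0.00204) and Mal 9.36-fold lower (-3.23 ± 0.34 SE, limma adjusted p = 0.00726), and these 2 were called whichever array was left out. Cryab was 12.6-fold lower (-3.66 ± 0.46 SE, limma adjusted p = 0.0129). Without DCX-DsRed A, Trf and Cryab missed the threshold (limma adjusted p = 0.0538 and 0.0566).

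Evi2a was 22.4-fold lower (-4.49 ± 0.59 SE, limma adjusted p = 0.0146), Ndrg1 22.2-fold (-4.47 ± 0.74 SE, limma adjusted p = 0.0309), Ppp1r14a 14-fold (-3.81 ± 0.68 SE, limma adjusted p = 0.0384) and Fa2h 10.7-fold (-3.42 ± 0.62 SE, limma adjusted p = 0.0397). Evi2a lost its call without any 1 DCX-DsRed array or SVZ C (limma adjusted p up to 0.0623). Ndrg1 lost it without hippocampal Sox2-GFP B, any 1 DCX-DsRed array, SVZ A or SVZ B, where it was -3.86. Ppp1r14a and Fa2h were called in 2 and 1 of the 9 fits that left out 1 array, with limma adjusted p up to 0.137 and 0.134. Over these fits the number of members called ran from 2 without DCX-DsRed A to 17 without hippocampal Sox2-GFP C, which enters this comparison only through the spread shared by all groups. The share of all genes called in each of these fits is not reported here.

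The 2 slides that held both groups gave the same direction for the myelin genes. The median difference was -2.84 on the slide with SVZ A and DCX-DsRed A and B, and -3.69 on the slide with SVZ B, SVZ C and DCX-DsRed C. For the precursor genes it was -0.25 on the first of these slides and 0.073 on the other. For the hippocampal pair, the slide with Sox2-GFP C and DCX-DsRed C gave -6.45 for the myelin genes and -1.92 for the precursor genes. With slide as a fixed block the hippocampal Sox2-GFP level rests on array C alone, since arrays A and B share their slide with no other group. The medians were then -6.17 for the myelin genes and -2.41 for the precursor genes.

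Between the regions, no member passed in the Sox2-GFP cells. Of the 39 genes 0 were called by limma in either direction, while 0.0442% of all genes were called higher and 0.353% lower in the SVZ. An unadjusted limma p under 0.05 was found for 8 of the 39, against 10.8% of all genes. Differences leaned towards the SVZ, with 33 of 39 positive, against 13546 of all 24897 genes. Medians were 1.04 for the myelin genes and 0.87 for the precursor genes, against 0.074 over all genes. Ermn had the largest difference, 5.31 ± 0.99 SE (limma adjusted p = 0.0848). It passed without hippocampal Sox2-GFP C, at 3.97 (limma adjusted p = 0.017), a fit in which the hippocampal group lies on a slide of its own. Mal, whose arrays did not overlap between the regions, differed by 1.52 ± 0.34 SE (limma adjusted p = 0.15). In the other direction Trf differed by -1.83 ± 0.60 SE (limma adjusted p = 0.33) and Cryab by -1.24 ± 0.46 SE (limma adjusted p = 0.395).

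Array C carried much of this lean. Without it, with the hippocampal group on a slide of its own, the median was 0.38 for the myelin genes and 0.20 for the precursor genes. Olig2 went from 1.53 to 0.11, Mbp from 0.71 to -0.87 and Opalin from 3.21 to 0.52. With slide as a fixed block, which takes the hippocampal level from array C alone, both medians were larger than in the fit without a block.

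**Figure D3:**
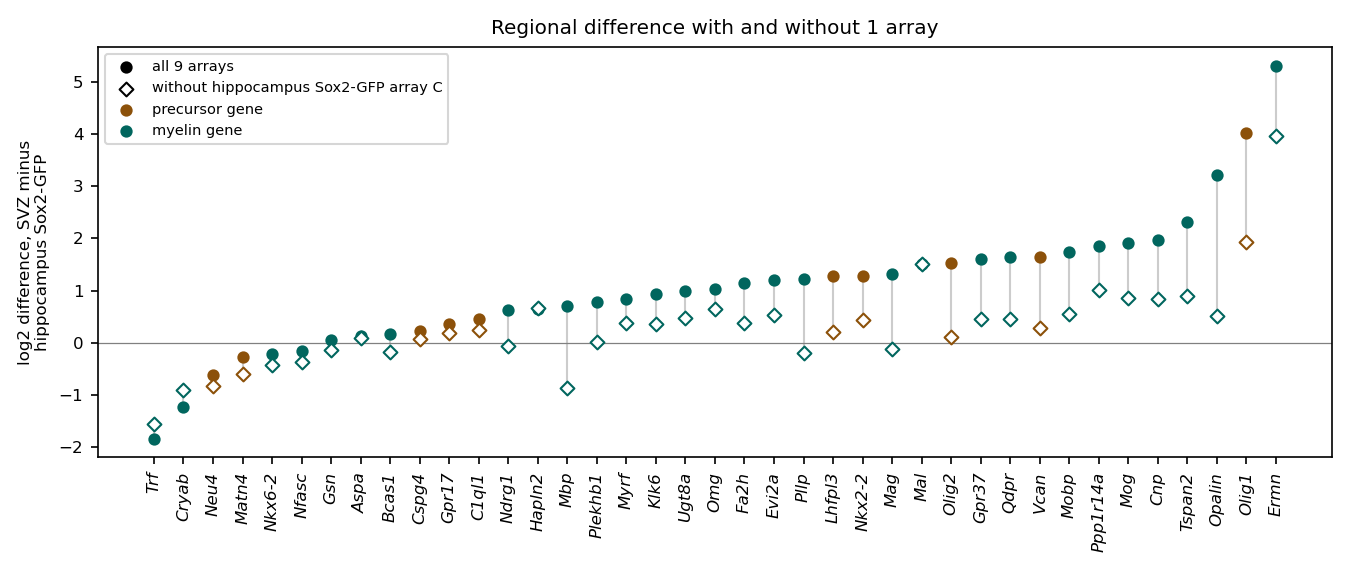
Log2 difference between SVZ and hippocampal Sox2-GFP cells (vertical axis) for the 39 genes, ordered by size, over all 9 arrays (filled) and without hippocampal Sox2-GFP array C (open). The median of the 29 myelin genes is 1.04 with all arrays and 0.38 without that array, while Mal and Hapln2 hardly move.

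Genes with several probes checked the direction. Of the 15 myelin genes with at least 2 probes above background, all 15 had negative hippocampal differences on every probe, but the sizes differed by a median of 1.44 log2 units within a gene. Tspan2 was -5.76 on its brightest probe and -1.20 on the other, Aspa -1.78 and -5.24, and Mag -4.14 and -1.35, so the fold of these genes depends on the probe. The 3 probes of Mbp gave -4.54, -5.50 and -4.83, and those of Mog -5.55, -7.29 and -6.64. Among the precursor genes, 3 of 4 kept 1 sign. Cspg4 had 1 probe at 0.22 and others at -0.61 and -0.94, the second probe of Gpr17 gave -1.68 against -0.23 on the brightest, and the second probe of Olig2 showed -0.052 against -2.66 on the first. Of the 70 probes of the members, 2 probes of Vcan were dim on every array and 2 others had been left out for outlier flags.

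**Figure D4:**
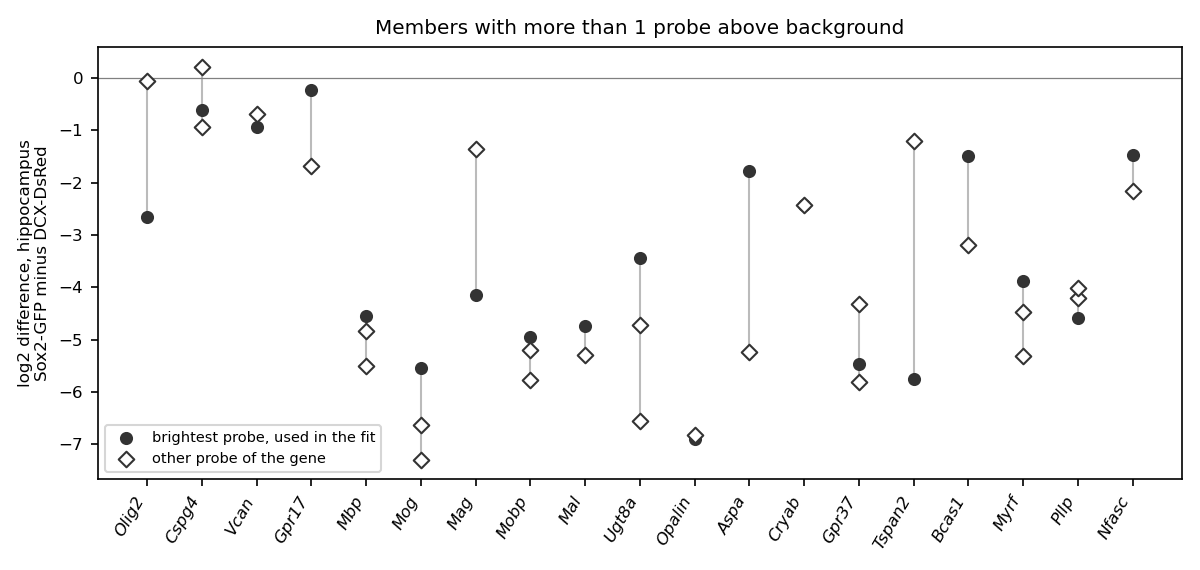
Log2 difference between hippocampal Sox2-GFP and DCX-DsRed cells (vertical axis) on each probe of the 19 members with at least 2 probes above background; filled circles are the brightest probes, used in the fit. All probes of the myelin genes lie under 0, with Tspan2, Aspa, Ugt8a and Mag spread widest.

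Other genes of the pathway were followed in lists drawn up in the same way. Of 35 further myelin genes measured, 10 were called lower and 0 higher in the hippocampal Sox2-GFP cells against DCX-DsRed (limma), with a median of -2.52. Over all genes 1.43% were called lower and 1.74% higher in that comparison. Anln, an actin-binding protein of cell division that is also found in myelin, was lowest at -8.75 ± 0.43 SE (limma adjusted p = 0.000175), followed by S1pr5, a sphingosine phosphate receptor (-7.26 ± 1.5 SE, limma adjusted p = 0.0427, well above background on 1 of the 3 hippocampal Sox2-GFP arrays), and Apod, apolipoprotein D (-6.14 ± 0.96 SE, limma adjusted p = 0.0164). In the SVZ against DCX-DsRed, 10 of the 35 were lower (1% of all genes were), led by Dock5 (-4.82 ± 0.72 SE, limma adjusted p = 0.021), the connexin 32 gene Gjb1 (-4.31 ± 0.48 SE, limma adjusted p = 0.00862) and Anln (-3.73 ± 0.43 SE, limma adjusted p = 0.0105). Anln was the 1 gene of this list called higher in SVZ than in hippocampal Sox2-GFP cells (5.02 ± 0.43 SE, limma adjusted p = 0.00751), and Enpp2, which the choroid plexus also makes, the 1 called lower (-4.29 ± 0.40 SE, limma adjusted p = 0.00842). Over all genes 0.0442% were called higher and 0.353% lower between the regions.

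Of 23 further precursor genes, 2 were lower in hippocampal Sox2-GFP than in DCX-DsRed cells, the protocadherin Pcdh15 (at least 14.0-fold lower, limma adjusted p = 0.0239) and the transcription factor Sox8 (-2.79 ± 0.60 SE, limma adjusted p = 0.0494). Over all genes 1.43% were called lower there. Pcdh15 was not well above background on any hippocampal Sox2-GFP array, so its fold is a lower bound, taken on each such array from the higher of its own signal and the lowest signal of any probe well above background. The list median was -0.31. Sox5 (3.15 ± 0.57 SE, limma adjusted p = 0.0396) and the proteoglycan Cspg5 (2.66 ± 0.50 SE, limma adjusted p = 0.0462) were higher in SVZ than in DCX-DsRed cells, as were 0.542% of all genes. Between the regions 0 of the 23 were called (limma) and 3 had an unadjusted p under 0.05, against 10.8% of all genes. Pdgfra, the growth factor receptor of precursors, measured -0.61, -0.83 and 2.37 on hippocampal Sox2-GFP arrays A, B and C, -1.25, -2.58 and -1.94 on DCX-DsRed and -2.62, -2.69 and -2.64 on SVZ arrays. It was highest on array C, the array lowest for most members, and did not pass (2.23 ± 0.81 SE, limma adjusted p = 0.208). Sox10, the factor that marks the lineage at every stage, averaged 0.39 ± 1.15 in hippocampal Sox2-GFP, 3.29 ± 0.33 in DCX-DsRed and 0.42 ± 0.90 in SVZ cells and did not pass (-2.90 ± 0.65 SE, limma adjusted p = 0.0574), although its DCX-DsRed arrays were the highest 3 of the 9.

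Of 21 regulators of the lineage, Id4, an inhibitor of basic helix-loop-helix factors that holds back differentiation, was higher in Sox2-GFP than in DCX-DsRed cells of the hippocampus (4.33 ± 0.55 SE, limma adjusted p = 0.0073) and higher in the SVZ (4.73 ± 0.55 SE, limma adjusted p = 0.0103), and Zeb2, which promotes it, was lower in the hippocampal Sox2-GFP cells (-3.17 ± 0.59 SE, limma adjusted p = 0.0299). Of 20 genes of myelin lipid synthesis, the desaturase Scd2 (-1.87 ± 0.35 SE, limma adjusted p = 0.0311) and the ceramide synthase Cers2 (-1.90 ± 0.39 SE, limma adjusted p = 0.0405) were lower in hippocampal Sox2-GFP cells. In the SVZ cells Cers2 was lower than in DCX-DsRed cells (-2.73 ± 0.39 SE, limma adjusted p = 0.0178). Of 15 genes of nodes and axon contact, 1 was called, Cntn2, a contactin of the region beside the paranode, at -5.52 ± 0.53 SE in hippocampal Sox2-GFP (limma adjusted p = 0.00302) and -4.33 ± 0.53 SE in SVZ cells against DCX-DsRed (limma adjusted p = 0.0124). Over all genes 1.43% were called lower and 1.74% higher in the hippocampus, and 1% and 0.542% in SVZ against DCX-DsRed cells. These 3 lists had hippocampal medians of -0.29, -0.37 and -0.24. Between the regions 0 of their genes were called (limma). An unadjusted limma p under 0.05 was found there for 2 of 21, 3 of 20 and 2 of 15, against 10.8% of all genes.

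Markers of other cell types moved with the same groups, and their part in the results for the 39 genes was not tested. Choroid plexus markers were higher in hippocampal Sox2-GFP than in DCX-DsRed cells for 9 of 13 measured (median 4.61, smallest p for Sostdc1 at 5.84 ± 0.54 SE, limma adjusted p = 0.00258) and ependymal markers for 8 of 14 (median 4.49, Foxj1 at 5.06 ± 0.72 SE, limma adjusted p = 0.0115). Over all genes 1.74% were called higher there. The log2 of the summed choroid plexus signal ran from 5.91 to 7.69 on hippocampal Sox2-GFP arrays, highest on array C, from 1.61 to 2.35 on DCX-DsRed and from 1.66 to 2.18 on SVZ arrays. The summed myelin signal ran from 5.11 to 6.07, 8.78 to 9.26 and 5.90 to 6.47 in the same order. For ependymal markers the sums were 5.28 to 5.83, 2.13 to 3.18 and 3.08 to 3.91. Between 9 and 11 of the 13 choroid plexus markers were well above background on DCX-DsRed arrays, against all 13 on hippocampal Sox2-GFP arrays. Against hippocampal Sox2-GFP cells, 5 choroid plexus markers, 0 ependymal markers and 0.353% of all genes were lower in the SVZ (limma). An unadjusted limma p under 0.05 was found there for 8 ependymal markers, against 10.8% of all genes. Against DCX-DsRed cells, 0 of 13 choroid plexus and 1 of 14 ependymal markers passed in the SVZ (limma). For 2 and 4 of them the unadjusted p was under 0.05, against 13.7% of all genes. The 1 that passed was Enkur, at least 25.7-fold higher (limma adjusted p = 0.0378), its probe being not well above background in DCX-DsRed cells.

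Astrocyte markers were higher in Sox2-GFP than in DCX-DsRed cells for 2 of 16 in the hippocampus (median 0.74) and 2 of 16 in the SVZ (median 2.75), Slc7a10 having the smallest p in both (3.20 ± 0.45 SE, limma adjusted p = 0.0115, and 3.71 ± 0.45 SE, limma adjusted p = 0.0124). Over all genes 1.74% and 0.542% were called higher. Against 16.9% and 13.7% of all genes, an unadjusted limma p under 0.05 was found for 2 and 8 of the 16 astrocyte markers. Their log2 summed signal ran from 5.44 to 7.16 in hippocampal Sox2-GFP, 5.02 to 5.69 in DCX-DsRed and 7.02 to 8.07 in SVZ cells, with array C lowest in its group. The log2 summed signal of newborn neuron markers ran from 2.05 to 3.84, 4.98 to 5.40 and 4.17 to 5.51 in the same order. It was higher on every DCX-DsRed than on every hippocampal Sox2-GFP array and overlapped with SVZ arrays. On DCX-DsRed arrays the sum rests mostly on Ncam1, Elavl4 and Prox1, which averaged 4.05, 2.68 and 2.37 there. In the hippocampal comparison 4 of the 12 markers did not overlap, against 6158 of all 24897 genes, and 2 of the 12 had a positive difference. Of the 12, 0 were called in any comparison (limma), and 4, 4 and 2 had an unadjusted p under 0.05. Over all genes that p was under 0.05 for 16.9%, 10.8% and 13.7%, in the order hippocampal, regional and SVZ against DCX-DsRed. Of the newborn neuron markers, Prox1, a factor of granule neurons, had the smallest p in the hippocampus (-2.17 ± 0.49 SE, limma adjusted p = 0.0559). For microglia 0 of 14 markers were called in any comparison (limma, 1, 2 and 1 with an unadjusted p under 0.05, Tmem119 first in the hippocampus at 1.76 ± 0.40 SE, limma adjusted p = 0.0577), and for mature neurons 0 of 11 (limma, 1, 0 and 0, Nefl first at -1.24 ± 0.42 SE, limma adjusted p = 0.177). Hippocampal differences of the microglia markers were positive for 7 and negative for 7. Endothelial and mural markers were higher in hippocampal Sox2-GFP cells for 2 of 15, Tek first (at least 13.1-fold, limma adjusted p = 0.0138, a bound, since its probe was not well above background in DCX-DsRed cells), and in SVZ cells for 1, against DCX-DsRed. Over all genes the shares called higher were 1.74% and 0.542%. Hippocampal medians were 0.039 for microglia, 0.97 for endothelial and mural, -0.92 for newborn neuron and -0.55 for mature neuron markers. Of 7 Schwann cell markers, which include Mbp and Sox10, 0 were called (limma, 3, 1 and 2 with an unadjusted p under 0.05). Sox10 had the smallest p of these in both comparisons with DCX-DsRed cells.

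**Figure D5:**
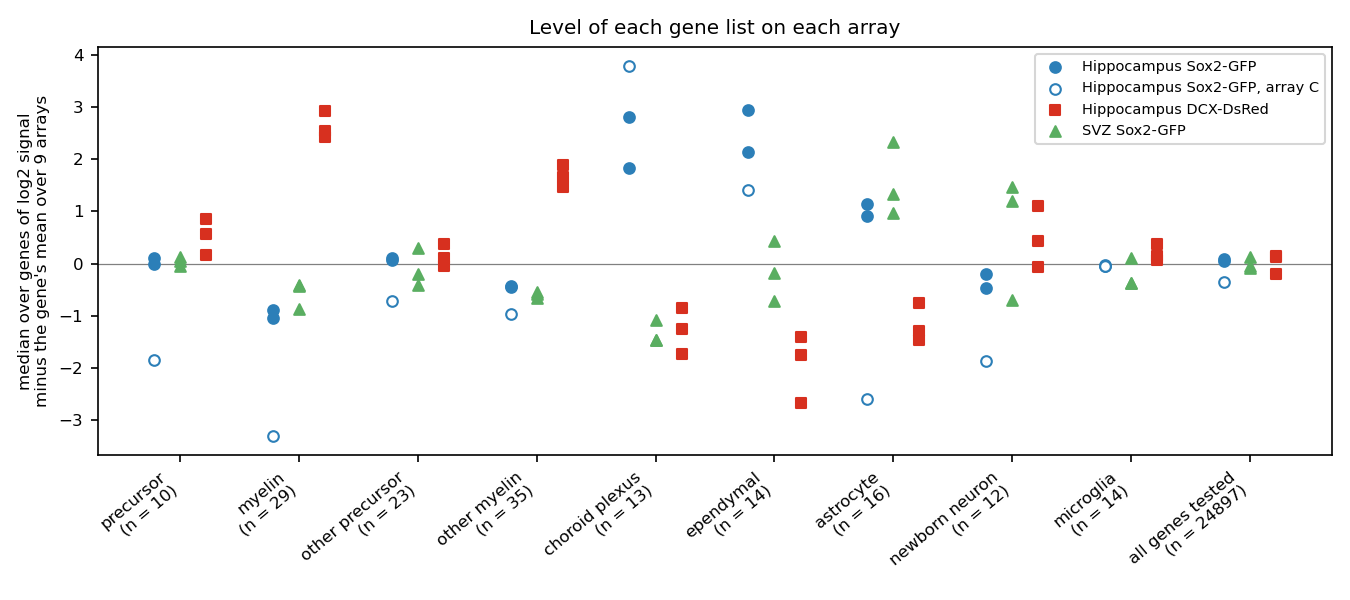
Median over the genes of each list of the log2 signal minus the gene's own mean over the 9 arrays (vertical axis), 1 point an array, for the precursor and myelin genes, their further lists, 5 marker lists and all genes tested; open circles are hippocampal Sox2-GFP array C. The 3 DCX-DsRed arrays sit above 2.4 for the myelin genes while the 6 others sit below 0, choroid plexus and ependymal markers are highest on hippocampal Sox2-GFP arrays, and array C is the lowest of the 9 for the precursor, myelin and astrocyte lists, among others.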

How the data were processed

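Amplified RNA of 9 samples (3 a group) was hybridised with Cy3 to one-colour Agilent mouse arrays. The authors deposited scanner output of Agilent Feature Extraction 9.5.1.1, per the file headers, with a processed signal intensity for each spot, background-corrected by that software. The deposited flags, per the file headers, say whether a spot is well above background, saturated or an outlier, and were used only as filters. The submitters' processing notes name limma. In 1 deposited file 47 gene symbols had been changed by spreadsheet software, so names were taken from another array. Total counts do not exist for arrays, and their number limits the precision.

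Log2 of the intensity minus the array's 75th percentile was computed here. Control spots and 464 probes lacking an unflagged spot on some array were left out, as were probes well above background on fewer than 3 of the 9 arrays. The brightest probe stood for each gene. limma 3.58.1 in R 4.3.3 (lmFit, eBayes) was fitted on all 9 arrays for 24897 genes, with Benjamini-Hochberg adjustment and a threshold of 0.05, and was tested on simulated data. All 39 members are named. Values on every array are given for members called with the 5 largest differences, and always for Olig2, Cspg4, Mbp and Mog. Of other pathway lists, Pdgfra, Sox10 and up to 3 called genes a comparison are named (some genes of these lists are not reported here), and of marker lists the gene with the smallest p. The members and lists were chosen with earlier results of these data known. Alternatives covered background correction, normalization, filters, probe choice, array weights, slide, replicate letter and leaving out each array.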

Additional observations from a re-analysis of the deposited data

How the results depend on the processing

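The 25 called member differences kept their sign in all 558 values under the alternatives, and 8 of the 25 were called in each of the 21 alternatives that span more than 1 slide. The alternatives refit the same arrays that gave these calls, so a kept sign is not independent evidence. Slide 3 held hippocampal Sox2-GFP C, DCX-DsRed C, SVZ B and SVZ C. Slide 1 held DCX-DsRed A and B and SVZ A, and its fit was chosen after seeing the data. Either slide alone left 1 array in a group, too few for calls, so only medians are given. Against the 17 members called in hippocampal Sox2-GFP minus DCX-DsRed, there were 11 with only the 2 groups compared, 30 with array weights and 6 to 17 leaving out 1 array. The share of all genes called under each alternative is not reported here. The counts here and below therefore cannot tell a change in the members from a change in all genes. The myelin median was -6.17 with slide as a fixed block, -6.45 on slide 3 alone, -3.51 with array weights and -4.91 to -3.63 leaving out 1 array. The precursor median was -2.41 with the slide block and -1.92 on slide 3, and -1.27 to -0.41 leaving out 1 array. Between the regions, against 0 members, 1 was called with normexp background correction, 1 with quantile normalization, 1 with slide as a random block, 2 with array weights and 0 to 1 leaving out 1 array. The precursor median was 1.68 with the slide block and 0.20 to 0.97 leaving out 1 array, and the myelin median 2.38 with the slide block, 2.50 on slide 3 and 0.38 to 1.55 leaving out 1 array. In SVZ minus DCX-DsRed, against 8, there were 16 with the slide block, 14 with only 2 groups, 20 with array weights and 2 to 17 leaving out 1 array. The precursor median was -0.25 with the slide block, 0.073 on slide 3, -0.25 on slide 1 and -0.90 to -0.28 leaving out 1 array. The myelin median was -3.69 on slide 3, -2.84 on slide 1 and -3.52 to -2.90 leaving out 1 array. With the replicate letter as a block, 10 members were called in the hippocampus and 5 in SVZ minus DCX-DsRed. Deviations of arrays with the same letter correlated at -0.037 to 0.12 and those with different letters at -0.15 to 0.098. With 3 arrays a group and some pairs sharing a slide, these values cannot decide whether the letters pair the samples. Among differences at least 1 SE from 0, those that turned were Matn4 in the hippocampus (-0.069 with the slide block), Lhfpl3 in SVZ minus DCX-DsRed (0.28 on slide 1) and, between the regions, Nkx2-2 (-0.052 without SVZ B to 2.25 without SVZ C), Mag (-0.11 without hippocampal Sox2-GFP C to 2.26 without SVZ C) and Pllp (-0.038 with array weights, and -0.19 without hippocampal Sox2-GFP C to 1.94 without A). A further 39 values turned sign among differences within 1 SE of 0, such as Vcan in the hippocampus and Mbp between the regions. The slide block and slide 3 both take the hippocampal Sox2-GFP level from array C, and leaving out array C puts that group on a slide of its own. The cause of the other changes was not tested. Signal near background limits Olig1, Opalin, Ermn and Lhfpl3.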
